A study of Mus musculus with 2 samples.

Results

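This report follows 10 genes of MHC class I and class II antigen presentation through single cells of mouse mammary transplants. The genes were chosen by name from the known pathway, and all 10 were among the 27998 genes of the count table. B2m, H2-K1 and H2-D1 encode the class I molecule, Tap1, Psmb8 and Psmb9 supply its peptides, and Cd74, H2-Aa, H2-Ab1 and H2-Eb1 belong to class II. The cells came from 2 droplet-based libraries with unique molecular identifiers (UMIs), called Ctrl (268 cells) and Fgfr2 KO (86 cells).

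Both libraries held transplants of mixed basal and luminal mammary epithelial cells that carried the R26R mTmG reporter, which switches from Tdtomato to GFP after Cre. In the Ctrl library the basal donor cells were Fgfr2+/+, and in the Fgfr2 KO library they were Fgfr2Δ/Δ, made from Fgfr2 fl/fl cells. Basal cells of both libraries had been exposed to adenovirus-Cre-GFP, and the luminal donor cells were wild type in both. Recipients were female nude (nu/nu) mice, 3 weeks old, whose fat pads had been cleared of their own epithelium. The grafts were dissected 5 days after surgery and their cells purified by FACS. Nude mice have no thymus and make few mature T cells, but keep macrophages, dendritic cells, B cells and NK cells. Each group was 1 library. The number of mice behind a library and the MHC haplotypes of donor and host are not given in the sources used here.

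MHC class I molecules sit on nearly every nucleated cell and show peptides of the cell's own proteins to CD8 T cells. Proteasomes cut these peptides, the TAP transporter moves them into the endoplasmic reticulum, and the heavy chain binds them there together with beta-2-microglobulin. MHC class II molecules show peptides of ingested proteins to CD4 T cells, and are found mainly on B cells, dendritic cells and macrophages. Interferon gamma, acting in part through IRF1 and the coactivators NLRC5 and CIITA, is the best known inducer of both pathways, and epithelial cells can take on class II after it. In the mammary gland, basal (myoepithelial) cells make keratins 5 and 14, and luminal cells make keratins 8 and 18.

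Of the 10 genes, 8 lie on mouse chromosome 17, between positions 33996017 and 35267499 of GRCm38 (GENCODE M21), within the mouse MHC. B2m lies on chromosome 2. All 10 are protein-coding genes. The RefSeq starts of Tap1 and Psmb9 lie 226 bases apart and point away from each other. Promoter sequences from RefSeq (GRCm38.p6) were at hand for 8 of the 10 genes. Those of B2m and H2-K1 are shown because these genes moved together between libraries in the epithelial classes, and those of H2-Aa and H2-Eb1 as examples of class II genes. Each is written 5′ to 3′ on the gene's own strand, and bases are counted backwards from the RefSeq start. Capitals mark CCAAT, the box bound by NF-Y, on either strand (ATTGG on the other), and an interferon-response motif on either strand, spelled as GAAA, 2 free bases and GAAA, or with GAA as its first part. The spellings differ by 1 base in length, and matches of both can overlap. Bases annotated as transcribed were left off the ends, and for H2-K1 the start nearest the gene body was used.
B2m promoter, bases -200 to -2, chr2:122147487-122147685, plus strand: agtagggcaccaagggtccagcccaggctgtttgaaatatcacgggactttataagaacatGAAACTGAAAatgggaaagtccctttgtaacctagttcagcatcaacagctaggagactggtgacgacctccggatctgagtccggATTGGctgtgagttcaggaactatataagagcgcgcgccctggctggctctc
H2-K1 promoter, bases -200 to -15, chr17:34000348-34000533, minus strand: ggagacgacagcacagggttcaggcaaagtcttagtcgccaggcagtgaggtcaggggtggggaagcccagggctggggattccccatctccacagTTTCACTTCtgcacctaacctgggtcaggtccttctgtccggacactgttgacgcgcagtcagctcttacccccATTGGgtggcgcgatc
H2-Aa promoter, bases -150 to -1, chr17:34287824-34287973, minus strand: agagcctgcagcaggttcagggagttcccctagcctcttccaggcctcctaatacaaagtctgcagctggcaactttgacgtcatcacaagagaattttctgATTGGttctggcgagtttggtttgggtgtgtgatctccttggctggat
H2-Eb1 promoter, bases -150 to -1, chr17:34305717-34305866, plus strand: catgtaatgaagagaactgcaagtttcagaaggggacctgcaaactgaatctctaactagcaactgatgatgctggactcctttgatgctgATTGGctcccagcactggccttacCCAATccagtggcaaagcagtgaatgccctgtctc

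Within 250 bases before the start, 7 of the 8 genes held CCAAT, against 33.8% of 32851 promoters. Tap1 (bases -222 to -218) and Psmb9 (bases -8 to -4) share 1 box between their starts, which counts for both. GAAA, 2 free bases and GAAA occurred in 1 of the 8, B2m (bases -139 to -130), against 2.98% of promoters. The spelling with GAA first occurred in 2, H2-K1 (bases -104 to -96) and H2-D1 (bases -150 to -142), against 6.31%. These matches describe letters only, and factor binding was not measured.

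Cells were sorted into classes by their own transcripts. Cells in which Ptprc, which encodes the leukocyte antigen CD45, had 1 UMI or more were called Ptprc cells. Other cells with at least 10 UMIs of Krt5, Krt14, Krt8 and Krt18 were called basal-keratin or luminal-keratin cells by the larger pair, and the rest were left unclassed. In the order Ctrl and Fgfr2 KO this gave 63 and 17 basal-keratin cells, 98 and 20 luminal-keratin cells, 73 and 23 Ptprc cells, and 34 and 26 unclassed cells. Depth was alike between libraries for the keratin classes, with medians of 16116 and 16982 UMIs (basal) and 22668 and 24624.5 UMIs (luminal). It differed for Ptprc cells, at 12228 and 6729 UMIs. Levels are given as UMIs per 1000000 UMIs of a class (CPM) with exact Poisson 95% intervals, and ratios on the log2 scale with exact conditional binomial 95% intervals. Cells of 1 library are not replicates of a genotype, so the genotypes could not be tested against each other, and all intervals cover counting error only.

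Defining markers went with the class names. The basal list gave 8128 CPM in Ctrl basal-keratin and 1302 CPM in Ctrl luminal-keratin cells, and the luminal list 2023 and 8639 CPM. The Ptprc class was less clean: 35 of its 73 Ctrl cells and 12 of its 23 Fgfr2 KO cells had a single Ptprc UMI, and 15 and 1 had at least 10 keratin UMIs. The 1 such Fgfr2 KO cell was the deepest of its class, with 83990 of the class's 271393 UMIs. The Ptprc class also left out cells rich in other leukocyte transcripts. At least 10 UMIs of 8 other leukocyte genes were found in 67 Ctrl and 18 Fgfr2 KO Ptprc cells. The same held for 15 of 34 Ctrl and 16 of 26 Fgfr2 KO unclassed cells. Fgfr2 itself, the targeted gene, gave 32.9 CPM (23.6 to 44.7) in Ctrl and 24.7 CPM (9.95 to 51.0) in Fgfr2 KO basal-keratin cells, intervals that overlapped. Counts per gene do not show whether a read lay in the deleted stretch, so Fgfr2 does not check the labels. Reporter UMIs did not separate the keratin classes either: GFP was present in 19 of 63 basal-keratin and 39 of 98 luminal-keratin Ctrl cells. In Fgfr2 KO it was present in 9 of 17 basal-keratin and 14 of 20 luminal-keratin cells. Which donor a keratin cell came from, and so its own Fgfr2 genotype, was not determined in either class.

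The class I molecule was present in every cell of the keratin and Ptprc classes, and its 3 genes were lower in the keratin cells of the Fgfr2 KO library. Summed over B2m, H2-K1 and H2-D1, the level in basal-keratin cells was 12279 CPM in Ctrl against 9251 CPM in Fgfr2 KO (log2 ratio -0.41, -0.47 to -0.35). In luminal-keratin cells 10479 CPM stood against 6278 CPM (log2 ratio -0.74, -0.79 to -0.69), which is 1.67-fold lower. Ptprc cells went the other way, with 12355 against 14105 CPM (log2 ratio 0.19, 0.14 to 0.24). Counting error is far smaller than these differences, but the spread between mice was not measured.

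Among single cells the libraries overlapped widely. Per 10000 UMIs of a cell, the 3 class I genes gave 20.3, 123 and 232 UMIs (lowest, median, highest) in Ctrl basal-keratin cells and 44.6, 98.8 and 151 in Fgfr2 KO basal-keratin cells. In luminal-keratin cells they gave 11.8, 98.8 and 267 in Ctrl and 12.9, 68.4 and 169 in Fgfr2 KO. The lower quartiles differed as well, at 91.5 and 65.2 in basal-keratin and 65.7 and 46.5 in luminal-keratin cells. With each cell weighted equally, the luminal-keratin log2 ratio was -0.58.

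**Figure D1:**
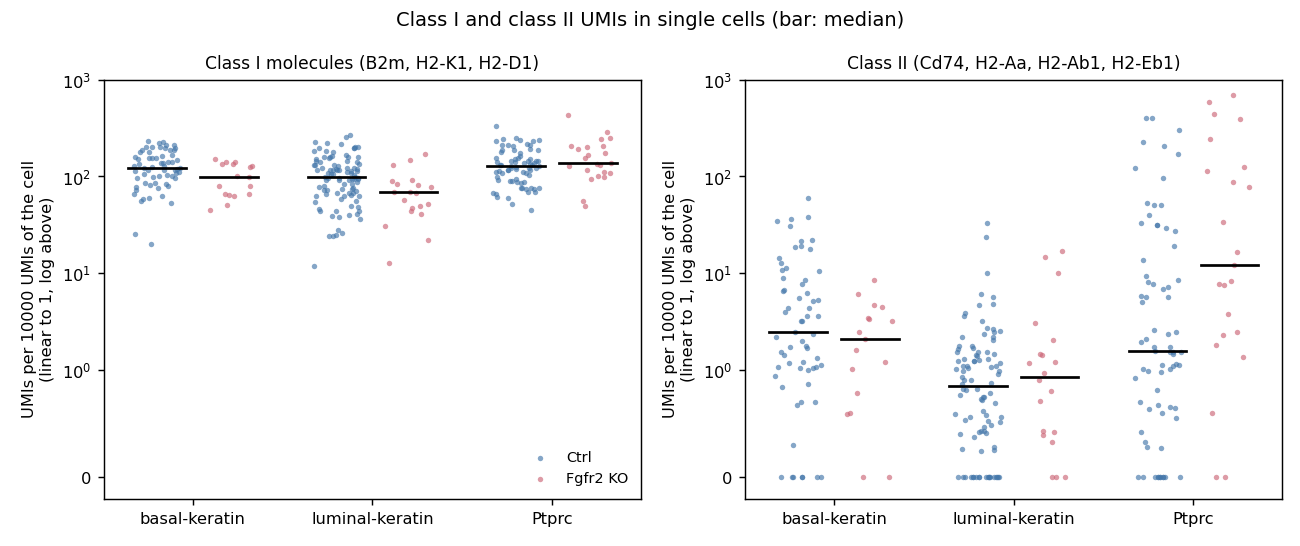
UMIs of the class I molecules (left) and of class II (right) per 10000 UMIs of each cell, on an axis that is linear to 1 and logarithmic above, for basal-keratin, luminal-keratin and Ptprc cells. Each point is 1 cell of the Ctrl (blue) or Fgfr2 KO (red) library and bars are medians: class I had medians between 68.4 and 139, while class II ran from 0 to 401 in Ctrl and 695 in Fgfr2 KO Ptprc cells.

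B2m, the light chain shared by all class I molecules, gave 6052 CPM (5917 to 6191) in Ctrl basal-keratin cells against 4504 CPM (4260 to 4758) in those of Fgfr2 KO (log2 ratio -0.43, -0.51 to -0.34). In luminal-keratin cells it gave 4623 CPM (4541 to 4706) and 2805 CPM (2665 to 2950), a log2 ratio of -0.72 (-0.80 to -0.64). Its order in Ctrl was basal-keratin, Ptprc (5734 CPM, 5601 to 5868) and luminal-keratin cells. In Fgfr2 KO the Ptprc cells came first, at 6901 CPM (6592 to 7221), which made B2m at least 2-fold higher there than in keratin cells of the same library (log2 ratio 1.02, 0.94 to 1.11).

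H2-K1, a classical heavy chain, had log2 ratios of Fgfr2 KO over Ctrl of -0.52 (-0.67 to -0.37) in basal-keratin and -0.81 (-0.93 to -0.68) in luminal-keratin cells. H2-D1, the other classical heavy chain, had -0.33 (-0.43 to -0.23) and -0.73 (-0.81 to -0.64). In Ptprc cells they were at 0.27 (0.14 to 0.40) and 0.06 (-0.03 to 0.14). Heavy chains are near-copies of each other: of all 50-base words in the last 500 bases of their transcripts, 11.8% (H2-K1) and 18.8% (H2-D1) also occurred in other genes, against 0% for B2m. Counts of single heavy chains are therefore uncertain, and so is the effect of a haplotype that differs from the reference.

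The other class I heavy chains were counted from a list of 12 in the table, of which those with at least 20 UMIs over both libraries were read. In luminal-keratin cells 9 of 10 lay below 0, with a median of -0.71, and 2 were at least 2-fold lower, against 8.96% of 9065 genes. Of these, Mr1 had 22 and 1 UMIs and an interval that held 0 (-2.16, -7.53 to 0.46). In basal-keratin cells the list was split, 4 of 8 below 0 with a median of -0.06. H2-Q7, a nonclassical heavy chain, was at least 2-fold lower in both, at -1.12 (-1.59 to -0.69) and -1.13 (-1.47 to -0.81). H2-Q10 was the 1 heavy chain that was at least 2-fold higher in basal-keratin cells, with 17 Ctrl and 10 Fgfr2 KO UMIs (1.37, 0.08 to 2.58).

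The 3 peptide-supply genes were also lower in Fgfr2 KO keratin cells. Their summed level in basal-keratin cells was 1090 CPM in Ctrl against 806 CPM in Fgfr2 KO (log2 ratio -0.44, -0.64 to -0.23). It was 1248 and 775 CPM in luminal-keratin cells (log2 ratio -0.69, -0.84 to -0.54). In Ptprc cells it was 812 and 737 CPM, and the interval of the log2 ratio, -0.14 (-0.37 to 0.08), held 0. With at least 2 Ptprc UMIs asked of a Ptprc cell it was 0.50. Unlike the class I molecule, peptide supply was higher in Ctrl keratin cells than in Ctrl Ptprc cells (log2 ratio of Ptprc over keratin -0.56, -0.66 to -0.46).

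Tap1, a subunit of the peptide transporter, gave 164 CPM (149 to 180) in Ctrl luminal-keratin cells against 69.1 CPM (48.6 to 95.2) in those of Fgfr2 KO. With a log2 ratio of -1.24 (-1.77 to -0.76) it was the 1 gene of the 10 that was at least 2-fold lower in this class, where 8.96% of 9065 genes were. With cells that carried signs of both classes left out it was at -0.90, short of 2-fold. With cells thinned to 5000 UMIs each, Tap1 had a UMI in 47 of 97 Ctrl and 2 of 20 Fgfr2 KO luminal-keratin cells. In basal-keratin cells its log2 ratio was -0.52 (-1.05 to -0.02).

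Psmb8, an immunoproteasome subunit, had log2 ratios of -0.55 (-0.83 to -0.27) in basal-keratin and -0.65 (-0.85 to -0.47) in luminal-keratin cells. Psmb9, another one, had -0.14 (-0.55 to 0.24) and -0.54 (-0.83 to -0.26), so that in basal-keratin cells its interval held 0. On the list of further immunoproteasome genes, Psmb10, Psme1 and Psme2, 3 of 3 lay below 0 in both keratin classes, with medians of -0.75 and -0.59. The 3 constitutive subunits that Psmb8, Psmb9 and Psmb10 replace (Psmb5, Psmb6 and Psmb7) had medians of -0.37 and -0.21. On the peptide-loading list 5 of 7 genes lay below 0 in basal-keratin and 6 of 7 in luminal-keratin cells. Its Tapbpl, a relative of tapasin, was at least 2-fold lower in luminal-keratin cells (-1.69, -2.78 to -0.77).

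**Figure D2:**
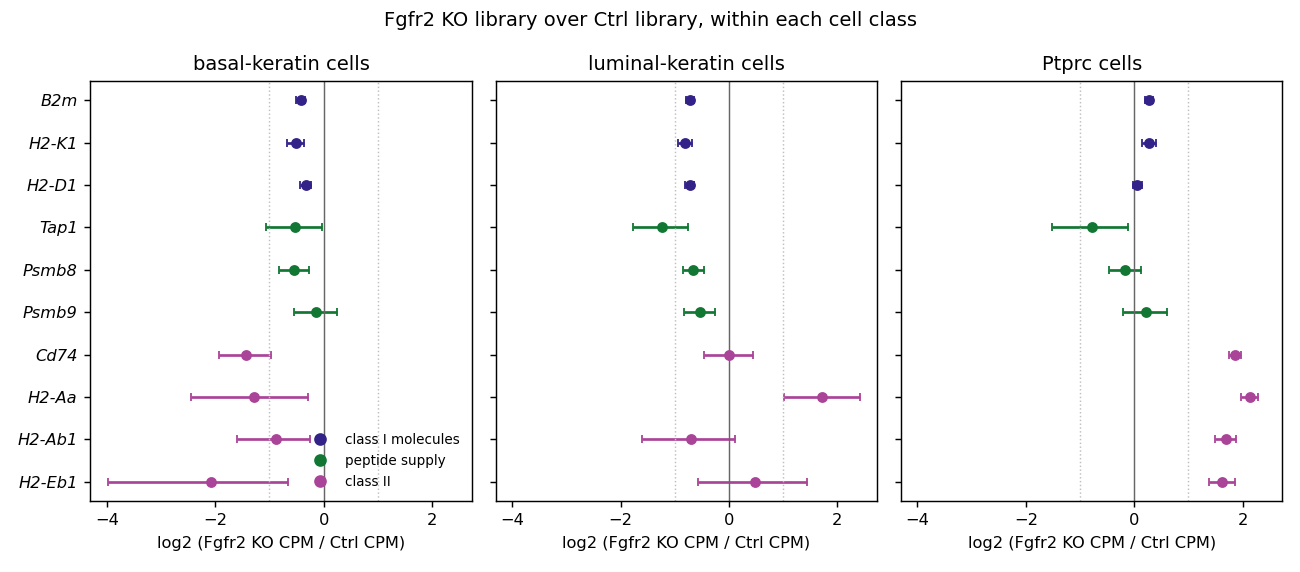
Log2 ratio of the Fgfr2 KO over the Ctrl library for each of the 10 genes within basal-keratin, luminal-keratin and Ptprc cells, with 95% counting intervals (bars), the 2-fold limits (dotted) and colours for class I molecules, peptide supply and class II. The 6 class I and peptide-supply genes lay below 0 in both keratin classes, and the 4 class II genes lay between 1.62 and 2.13 in Ptprc cells.

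Over all 10 genes the median log2 ratio was -0.53 in basal-keratin cells, where the 6637 genes with at least 20 UMIs had a median of -0.10. It was -0.67 in luminal-keratin cells, against -0.03. In Ptprc cells it was 0.27, against -0.03. All 10 genes passed this minimum in each of the 3 comparisons.

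Class II was mostly a matter of Ptprc cells. In Ctrl the 4 genes reached 2555 CPM (2467 to 2646) in Ptprc cells against 331 CPM in keratin cells, a log2 ratio of 2.95 (2.85 to 3.04). In Fgfr2 KO they reached 9326 CPM (8966 to 9697) against 224 CPM, a log2 ratio of 5.38 (5.17 to 5.61). In Ctrl the class II genes were the 4 of the 10 genes that were at least 2-fold higher in Ptprc cells, against 9.51% of 10364 genes. In Fgfr2 KO they were joined by B2m, which made 5 of 10 against 11.3% of 5689 genes. Ptprc helped to define these cells, but none of the 10 genes did.

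**Figure D3:**
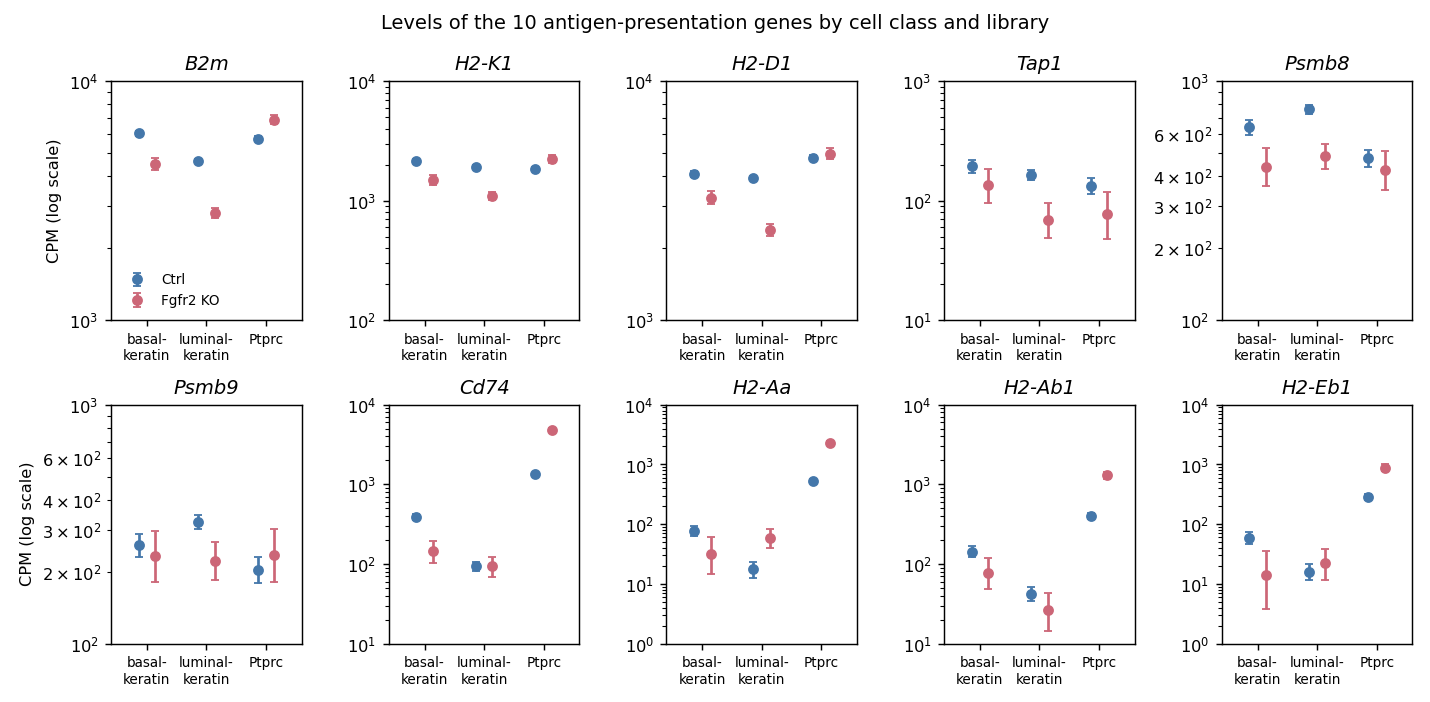
Level of each of the 10 genes (CPM, log scale) in basal-keratin, luminal-keratin and Ptprc cells of the Ctrl (blue) and Fgfr2 KO (red) libraries, with exact Poisson 95% intervals. The class II genes of the lower row stood highest in Ptprc cells, and in Ctrl lay higher in basal-keratin than in luminal-keratin cells.

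Between libraries, class II in Ptprc cells was 3.65-fold higher in Fgfr2 KO (log2 ratio 1.87, 1.79 to 1.94). Cd74, the invariant chain that guards the peptide groove until loading, went from 1333 CPM in Ctrl to 4823 CPM in Fgfr2 KO (log2 ratio 1.86, 1.75 to 1.96). H2-Aa, the alpha chain of I-A, had 530 and 2314 CPM (2.13, 1.97 to 2.29). H2-Ab1, the beta chain of I-A, and H2-Eb1, the beta chain of I-E, had log2 ratios of 1.68 (1.48 to 1.88) and 1.62 (1.38 to 1.86). Thus 4 of 10 genes were at least 2-fold higher, against 7.8% of 6345 genes, and 0 of 10 were at least 2-fold lower, against 12.2%.

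Few cells carried this class II signal. In Ctrl Ptprc cells the sum was 0, 1.55 and 401 per 10000 UMIs (lowest, median, highest), and in Fgfr2 KO 0, 12.3 and 695. The top 3 cells of Ctrl held 43.6% of its class II UMIs, and those of Fgfr2 KO held 71.9%. The top Fgfr2 KO cell alone held 938 of 2531. When the cell with most class II was taken out of each library, the log2 ratio was 1.56. At least 10 class II UMIs were found in 27 of 73 Ctrl cells (37.0%, exact interval 26.0 to 49.1%) and 12 of 23 Fgfr2 KO cells (52.2%, 30.6 to 73.2%), intervals that overlapped.

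The Ptprc cells were of several kinds, and the kinds below can overlap in a cell. By a macrophage list, 64 of 73 Ctrl and 16 of 23 Fgfr2 KO cells had at least 30 marker UMIs. Within these cells class II was 3195 CPM (3083 to 3310) in Ctrl and 14699 CPM (14095 to 15321) in Fgfr2 KO. The medians per cell were 2 and 5.5 class II UMIs, and in Fgfr2 KO 4 cells with 938, 578, 305 and 274 held most of the 2233. The cell with 578 had 36 macrophage and 12 dendritic marker UMIs. At least 10 dendritic-marker UMIs were found in 1 Ctrl and 4 Fgfr2 KO cells, with 640 class II UMIs in the Ctrl cell and 11 to 578 in the others. At least 3 B-cell-marker UMIs were found in 0 Ctrl and 2 Fgfr2 KO cells, which had 110 and 133 class II UMIs. The 2 Ctrl cells with at least 10 T and NK marker UMIs had 0 class II UMIs among 8447, and the 1 such Fgfr2 KO cell had 2. With 1 library each, a difference within a cell type and a different mix of cells cannot be told apart.

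Class II was also found in keratin cells, and there mostly in the basal ones of Ctrl. The 4 genes came to 674 CPM (629 to 721) in basal-keratin and 169 CPM (154 to 185) in luminal-keratin cells of Ctrl, a log2 ratio of luminal over basal of -2.0 (-2.16 to -1.83). All 4 class II genes, and 4 of the 10 genes, were at least 2-fold lower in luminal-keratin cells, against 5.5% of 9535 genes. Along the keratin share, Ctrl cells with over 80% basal keratin UMIs had 728 CPM, cells between 20 and 80% had 389 CPM, and cells under 20% had 171 CPM. Class I molecules followed this gradient only weakly, at 11869, 11402 and 10578 CPM.

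In Fgfr2 KO basal-keratin cells class II was lower, at 269 CPM (212 to 336), a log2 ratio of -1.33 (-1.68 to -0.99). Cd74 went from 393 CPM in Ctrl to 145 CPM in Fgfr2 KO (-1.44, -1.94 to -0.98). H2-Eb1 had 74 Ctrl UMIs against 4 (-2.07, -3.98 to -0.65), and H2-Aa had 96 and 9 (-1.28, -2.45 to -0.29). H2-Ab1 had 179 and 22 (-0.89, -1.60 to -0.24). These made 3 of 10 genes at least 2-fold lower, against 11.5% of 6637 genes, and 0 of 10 at least 2-fold higher, against 4.14%. The direction rested on the keratin minimum: without it, cells with few keratin UMIs entered the class and the log2 ratio was 0.79.

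In luminal-keratin cells the class II sum was 169 CPM in Ctrl against 200 CPM in Fgfr2 KO, and the interval of the log2 ratio, 0.24 (-0.08 to 0.55), held 0. With cells that carried signs of both classes left out it was -0.80. Cd74 was at 93.2 and 93.4 CPM. H2-Aa was the 1 gene that was at least 2-fold higher, with 46 Ctrl and 31 Fgfr2 KO UMIs (log2 ratio 1.73, 1.02 to 2.41), against 3.94% of genes. That call was lost, at 0.57, with cells that carried signs of both classes left out. H2-Ab1 (-0.69, -1.61 to 0.11) and H2-Eb1 (0.49, -0.57 to 1.44) had intervals that held 0. The 3 Fgfr2 KO luminal-keratin cells with most class II UMIs held 61.7% of them.

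Most of the class II UMIs of Ctrl basal-keratin cells lay in a subset. The sum per 10000 UMIs was 0, 2.49 and 60.4 (lowest, median, highest), against 0, 2.1 and 8.41 in Fgfr2 KO. At least 10 class II UMIs were found in 22 of 63 Ctrl cells (34.9%, 23.3 to 48.0%) and in 2 of 17 Fgfr2 KO cells (11.8%, 1.46 to 36.4%), intervals that overlapped. Among luminal-keratin cells this held for 8 of 98 and 3 of 20. Of the 22 Ctrl basal-keratin cells, 19 had UMIs of at least 3 of the 4 class II genes. The highest had 138 class II UMIs, of which 62 were Cd74, 41 H2-Ab1, 20 H2-Aa and 15 H2-Eb1, beside 17 basal and 9 luminal keratin UMIs. With cells thinned to 5000 UMIs, 41 of 62 basal-keratin cells of Ctrl (66.1%) had a class II UMI, as had 12 of 17 in Fgfr2 KO (70.6%). The medians and these shares were close, so the difference lay in the upper cells.

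RNA freed from broken leukocytes can give class II UMIs in any droplet, and cells can share one. So each class II gene in keratin cells was set against genes that leukocytes express and epithelium lacks. The 8 genes of the leukocyte list other than Ptprc stood in Ctrl basal-keratin cells at 1.18 to 4.48% of their level in Ptprc cells, with a median of 1.97%. Lyz2, which encodes the lysozyme of macrophages, stood at 2.45% (2.19 to 2.73%). Cd74 stood at 29.5% (26.6 to 32.7%), H2-Ab1 at 35.4% (29.7 to 42.1%), H2-Eb1 at 20.7% (15.9 to 26.7%) and H2-Aa at 14.5% (11.6 to 18.0%). All 4 class II genes were above all 8 leukocyte genes there.

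In Ctrl luminal-keratin cells the margin was smaller. The leukocyte genes stood at 1.0 to 6.59% (median 2.63%) and the class II sum at 6.61% (5.97 to 7.30%). By gene, H2-Aa (3.30%) and H2-Eb1 (5.57%) lay within that range, and Cd74 (7.0%) and H2-Ab1 (10.4%) above it. The top of that range was Lcp1 (6.59%), and the next gene, Coro1a, stood at 2.93%, below all 4 class II genes. In Fgfr2 KO the class II sum stood at 2.88% (2.26 to 3.62%) in basal-keratin and 2.14% (1.75 to 2.6%) in luminal-keratin cells. The leukocyte genes with a UMI stood there at medians of 1.03% and 1.25%, and their highest reached 2.86% and 4.34%. In luminal-keratin cells of Fgfr2 KO all 4 class II genes lay within the range of the leukocyte genes, so that their level was not above what these genes showed. The 3 cells with most class II UMIs there had 27, 20 and 19, beside 3, 3 and 0 leukocyte UMIs, while cells of 55880 and 84310 UMIs had 8 and 6. The part of free RNA in these counts was not tested. In Fgfr2 KO basal-keratin cells H2-Aa (1.37%) and H2-Eb1 (1.60%) lay within the leukocyte range, whose top was Cd53 with 2 UMIs (2.86%). Cd74 (3.01%, 2.15 to 4.10%) lay beside that upper end, and H2-Ab1 (5.96%, 3.69 to 9.17%) lay above it. The Ptprc cells that class II is set against differed between libraries, as described above, which moves these percentages too.

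**Figure D4:**
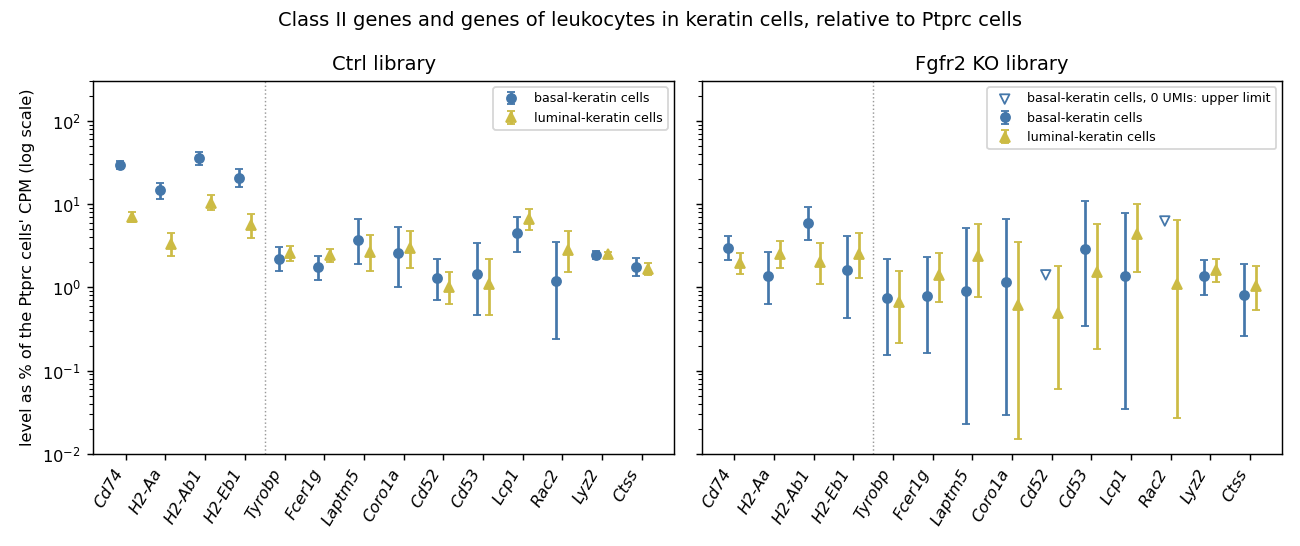
Level of the 4 class II genes (left of the dotted line) and of 10 other genes of leukocytes in basal-keratin and luminal-keratin cells, as a percentage of the level in Ptprc cells of the same library (log scale), with 95% counting intervals. Open triangles are upper limits for genes with 0 UMIs: in Ctrl basal-keratin cells the class II genes lay between 14.5 and 35.4%, above the leukocyte genes.

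Among Ctrl basal-keratin cells, those with class II did not carry more leukocyte UMIs. The 22 cells with at least 10 class II UMIs had 0 to 7 UMIs of the leukocyte list (median 2), and the other 41 had 0 to 8 (median 2). The cell with 138 class II UMIs had 4. Leukocyte UMIs can be few in cells with much class II. Fgfr2 KO Ptprc cells with 133 and 110 class II UMIs had 7 and 9, among 2256 and 2468 UMIs. An unclassed Fgfr2 KO cell with 40 class II UMIs had 1, among 10669 UMIs. The source of the class II UMIs in basal-keratin cells was not tested. Total UMIs of the 22 cells were somewhat higher, with medians of 18416 and 13886. In Fgfr2 KO the 2 cells with at least 10 class II UMIs had 2 leukocyte UMIs each, and the other 15 had 0 to 1. Of the 22 Ctrl cells, 9 had a GFP and 15 a Tdtomato UMI, reporters that only donor cells carry, against 10 and 18 of the other 41. In Ctrl Ptprc cells, which include the 15 cells with at least 10 keratin UMIs, 6 of 73 had a GFP and 21 of 73 a Tdtomato UMI at a median depth of 12228 UMIs, so a reporter UMI alone does not mark a donor cell.

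**Figure D5:**
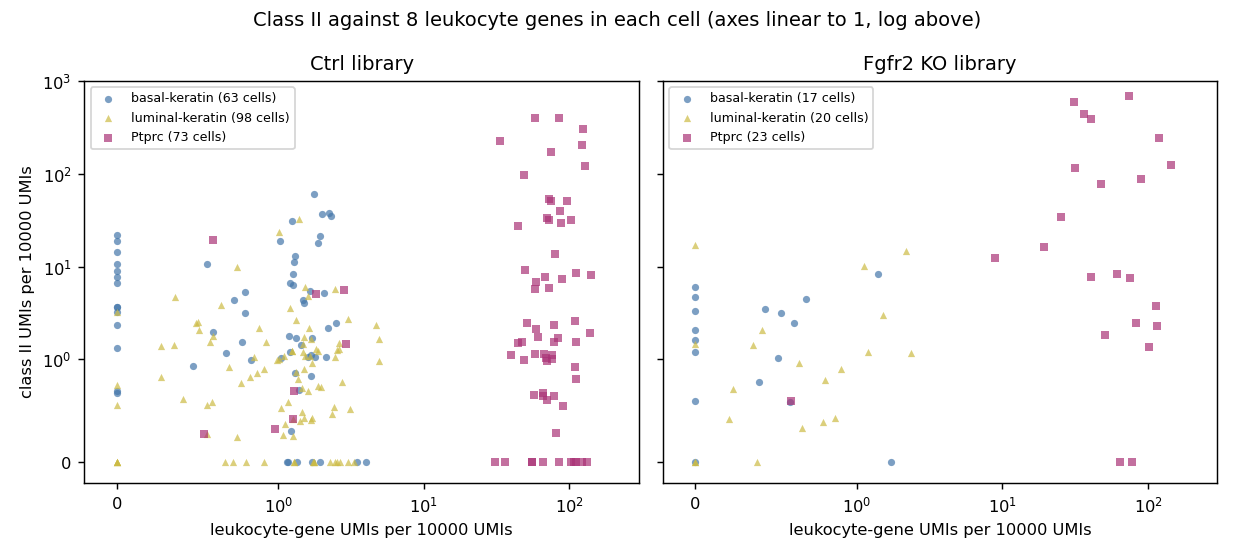
Class II UMIs against UMIs of 8 leukocyte genes in each cell, both per 10000 UMIs of the cell on axes linear to 1 and logarithmic above, for the Ctrl (left) and Fgfr2 KO (right) libraries. Basal-keratin cells (circles) reached 60.4 class II UMIs in Ctrl while staying at or under 4.0 leukocyte UMIs, and most Ptprc cells (squares) lay apart on the right.

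Within Ctrl basal-keratin cells, class I went with class II. The class I molecules gave 14836 CPM in the 22 cells with at least 10 class II UMIs and 10649 CPM in the other 41, and peptide supply gave 1476 and 844 CPM. Across the 63 cells Spearman's rho of class II was 0.47 with class I molecules and 0.62 with peptide supply. It was -0.09 with the leukocyte list and 0.06 with total UMIs. In the 17 Fgfr2 KO basal-keratin cells rho was -0.16 with class I molecules and 0.48 with peptide supply. In Ctrl luminal-keratin cells (98) these values were 0.21 and 0.18. These are descriptions over cells of 1 library that share its depth and background.

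Of 6 regulators read in basal-keratin cells, 2 were at least 2-fold lower (11.5% of all genes were) and 1 at least 2-fold higher (4.14%). In luminal-keratin cells 1 of 7 was lower (8.96%) and 0 higher (3.94%), and in Ptprc cells 0 of 5 lower (12.2%) and 1 higher (7.8%). The genes behind these calls are not all named here. Irf1, an interferon-induced activator of class I genes, had 184 CPM in both libraries in basal-keratin cells (0.00, -0.46 to 0.44). In luminal-keratin cells it had 180 and 155 CPM (-0.22, -0.57 to 0.12). Nlrc5, the class I coactivator, was at the edge of detection with 19 and 3 UMIs in basal-keratin and 33 and 2 UMIs in luminal-keratin cells, and both intervals held 0. Ciita, the class II coactivator, had 3 and 0 UMIs in basal-keratin, 5 and 0 in luminal-keratin and 2 and 0 in Ptprc cells, too few to compare. Ifng had 3 UMIs over the keratin and Ptprc classes, all in Ctrl Ptprc cells. Cd274 (PD-L1), which is also interferon-induced, had 62 UMIs in luminal-keratin cells of Ctrl but 1 in those of Fgfr2 KO (log2 ratio -3.66, -8.99 to -1.13).

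Over all 53 genes of 8 pathway lists outside the 10 members, 51 were in the table. In basal-keratin cells 36 had at least 20 UMIs: 6 were at least 2-fold lower in Fgfr2 KO (11.5% of all genes were) and 2 at least 2-fold higher (4.14%), with a median of -0.18. In luminal-keratin cells 6 of 41 were at least 2-fold lower (8.96% of all genes) and 0 at least 2-fold higher (3.94%), with a median of -0.49. In Ptprc cells 8 of 37 were at least 2-fold higher (7.8% of all genes) and 1 at least 2-fold lower (12.2%), with a median of 0.23. The gene that was lower there was Ctsl, a lysosomal protease (log2 ratio -1.63, -1.79 to -1.48). Ctss, the protease that trims the invariant chain, was at -0.55 (-0.68 to -0.42) and Ifi30, a lysosomal thiol reductase, at 1.07 (0.73 to 1.41) in the same cells, so the class II route did not shift as 1 block.

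H2-DMa, H2-DMb1 and H2-DMb2, chains of the H2-DM complex that loads peptide on class II, were higher in Ptprc than in keratin cells of Ctrl, with log2 ratios of 2.98 (2.57 to 3.40), 1.25 (0.86 to 1.63) and 1.35 (0.81 to 1.89). Between libraries in Ptprc cells they were at 0.45 (-0.03 to 0.90), 0.77 (0.18 to 1.32) and 1.23 (0.51 to 1.91). In basal-keratin cells their log2 ratios of Fgfr2 KO over Ctrl were 0.26, 0.52 and 0.94, each with an interval that held 0. On the same list of 7 genes read there, 2 were at least 2-fold lower, Ctss with 70 Ctrl and 5 Fgfr2 KO UMIs (-1.67, -3.34 to -0.38) and Ifi30 with 45 and 5 (-1.03, -2.72 to 0.30). Ctss stood in these cells at 1.76% of its level in Ptprc cells in Ctrl and at 0.81% in Fgfr2 KO, near the leukocyte genes.

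Genes outside the lists were ranked by Spearman's rho across Ctrl cells. With class I molecules and peptide supply over 161 Ctrl keratin cells, the 5 most alike were Ly6a (0.60), Bst2 (0.60), Gm8797 (0.57), Ubb (0.56) and Cd47 (0.55). In the 37 Fgfr2 KO keratin cells their rho was -0.02, 0.28, 0.54, 0.53 and 0.16. With class II over 63 Ctrl basal-keratin cells they were Phf11d (0.50), Oas1a (0.49), Vcam1 (0.48), Gbp2 (0.47) and Anapc4 (0.47), a set of cells chosen after the data were seen. In the 17 Fgfr2 KO cells these were at 0.01, 0.55, -0.19, 0.32 and 0.08. With class II over 73 Ctrl Ptprc cells they were Mxi1 (0.46), A930007I19Rik (0.42), Trf (0.41), Tlr2 (0.40) and Gpr132 (0.40), and in the 23 Fgfr2 KO cells these ran from -0.24 to 0.14. Such ranks over few and sparse cells are descriptions.

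The leukocyte list itself differed between libraries in keratin cells. It came to 112 CPM in Ctrl against 38.9 CPM in Fgfr2 KO basal-keratin cells (log2 ratio -1.53, -2.57 to -0.65), and to 136 and 59.8 CPM in luminal-keratin cells (-1.18, -1.75 to -0.66). Of its 9 genes, 8 had a UMI in Ctrl and 6 in Fgfr2 KO basal-keratin cells, with Ptprc at 0 by definition. Macrophage markers were lower too, with 340 and 120 CPM in basal-keratin cells. Its part in the lower class II of Fgfr2 KO basal-keratin cells was not tested. In Ctrl basal-keratin cells the leukocyte list stood at 2.05% of its level in Ptprc cells, where class II stood at 26.4%. With keratin cells of at least 3 leukocyte UMIs and Ptprc cells of at least 10 keratin UMIs left out, the log2 ratio of class II in basal-keratin cells was -1.64, and that of class I molecules -0.51.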

How the data were processed

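The authors deposited raw UMI counts per gene and cell in 1 table of both libraries, made with Cell Ranger (2.1.1 and build mm10 per the labels' processing notes) and its aggregation step, which can thin reads between libraries. Cells were assigned to libraries by column prefix, and no barcode occurred in both. The 2 reporter rows were left out of totals. After removal of Ptprc cells 195 Ctrl and 63 Fgfr2 KO cells remained, more than in the study, whose CD45 threshold is not stated.

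UMIs were summed over the cells of a class and library. Intervals are exact Poisson (CPM), exact conditional binomial (ratios) and Clopper-Pearson (shares), all at 95%, with a floor of 3 counts. A gene was called at 2-fold if it had at least 20 UMIs over both sides. The ratio step was tested on simulated counts. For shares, cells were also thinned to 5000 UMIs, which left out 33 shallower cells. Doublets were kept: Scrublet (scanpy 1.11.5) called 2 of 268 and 1 of 86. Tools were Python 3.11.15, numpy 2.4.6, scipy 1.17.1 and pandas 2.3.3. All 10 members are reported, listed pathway genes are named if past 2-fold or a regulator (1 of these is not reported here), and the H2-DM, Psme and Psmb genes were named after their values were seen. Alternatives changed the class rules, cell weights, denominator, gene minimum and doublets. Likeness was ranked among genes in at least 20% of Ctrl cells. The members and lists were chosen with earlier results of these data known.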

Additional observations from a re-analysis of the deposited data

Results flagged for a closer look

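Class II pointed in opposite directions in basal-keratin and in Ptprc cells. The log2 ratio of Fgfr2 KO over Ctrl was -1.33 in basal-keratin and 1.87 in Ptprc cells for the sum, -1.44 and 1.86 for Cd74, -1.28 and 2.13 for H2-Aa, and -2.07 and 1.62 for H2-Eb1. H2-Aa also differed between the keratin classes, at -1.28 in basal-keratin and 1.73 in luminal-keratin cells. With 1 library per group these differences were not tested.

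Unclassed cells, which enter no comparison above, had class II at 478 CPM in Ctrl (34 cells) and 2309 CPM in Fgfr2 KO (26 cells), a log2 ratio of 2.27 (2.0 to 2.55). In Fgfr2 KO 1 cell held 149 of the 375 class II UMIs, of which 107 were H2-Aa, beside 49 dendritic-marker UMIs. Another held 108, beside 6 B-cell-marker UMIs.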

How the results depend on the processing

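Values are log2 ratios of Fgfr2 KO over Ctrl unless said. Peptide supply in both keratin classes moved by less than its counting interval under all 9 alternatives. Without a keratin minimum, class II in basal-keratin cells reversed to 0.79 (Cd74 0.37, H2-Aa 2.48, H2-Ab1 0.03, H2-Eb1 0.08), and class I molecules were at -0.14 (basal) and -0.49 (luminal). Class II was then 0.61 in luminal-keratin cells, 4.0 in Ptprc over keratin cells of Fgfr2 KO, and -1.79 in luminal over basal cells of Ctrl. With at least 2 Ptprc UMIs per Ptprc cell, Ptprc cells gave 0.53 (class I molecules), 0.50 (peptide supply) and 2.05 (class II). Ptprc over keratin cells then gave 3.53 (Ctrl) and 6.25 (Fgfr2 KO) for class II, and luminal over basal -1.76. With cells carrying signs of both classes left out, class I molecules were at -0.51 (basal), -0.84 (luminal) and 0.44 (Ptprc), peptide supply at 0.40 and Tap1 at 0.23 in Ptprc cells, and class II at -0.80 (luminal) and 2.19 (Ptprc). Ptprc over keratin cells gave 2.71 and 6.25. With each cell weighted equally, class I molecules were at -0.58 (luminal) and 0.28 (Ptprc), class II at 0.70 (luminal) and Tap1 at 0.37 (Ptprc). Without the top cell, class I molecules were at -0.83 (luminal) and 0.05 (Ptprc), peptide supply at 0.15 and class II at 1.56 (Ptprc), and Ptprc over keratin cells at 2.82 and 4.97. Without mitochondrial and ribosomal protein genes, class I molecules were at -0.67 (luminal) and class II in Ptprc over keratin cells of Ctrl at 2.84. Keratin classes over 80%, chosen after seeing the data, gave -0.30 (basal) and -0.89 (luminal) for class I molecules and 3.08 for class II in Ptprc over keratin cells of Ctrl. Among genes with at least 50 UMIs, 7.08% were at least 2-fold lower in basal-keratin cells. Thinned to 5000 UMIs, a class II UMI was found in 66.1% of basal-keratin and 38.1% of luminal-keratin Ctrl cells, and in 70.6% of basal-keratin and 35.0% of luminal-keratin Fgfr2 KO cells, against 88.9, 80.6, 88.2 and 85.0% unthinned. For single genes 217 alternatives stayed within the counting interval, 47 moved beyond it and 6 reversed. The causes were not tested. No paired analysis was possible because each group had 1 library. The 17 and 20 keratin cells per class of Fgfr2 KO limit all comparisons.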
